A study of Mus musculus with 16 samples.

Results

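The 6 actin isoform genes, Acta1, Actc1, Acta2, Actg2, Actb and Actg1, were examined among the 55573 genes counted in mouse heart apex. They were chosen by gene name. All 16 mice were male wild-type animals that received AAV9 on postnatal day 1, in which the cardiac troponin T promoter drove either GFP or Cardinal, so that the controls also carried a virus and the transgene was directed to cardiomyocytes. Mice with either virus underwent sham surgery or TAC, which gave 4 groups of 4 mice. TAC (transverse aortic constriction) narrows the aorta and raises the pressure load on the left ventricle, and hearts were taken 4 weeks after surgery. Cardinal is a long noncoding RNA listed as Gm12295, and the purpose of the design was to learn how its delivery alters the response to TAC.

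Actins polymerize into filaments. In cardiomyocytes the thin filaments of the sarcomere are built mainly from cardiac alpha-actin, encoded by Actc1. The skeletal alpha-actin gene Acta1 is also used in the heart, most in early life and in hypertrophy, and is a classic member of the fetal gene program. Acta2 and Actg2 encode the smooth muscle alpha- and gamma-actins of vessel and visceral muscle. Actb and Actg1 encode the cytoplasmic beta- and gamma-actins found in nearly all cells. Many actin genes carry CArG boxes, the motif bound by serum response factor (SRF).

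The genes lie apart from each other, all on the minus strand of GRCm38: Acta1 at chr8:123891769-123894751, Actc1 at chr2:114047282-114053548, Acta2 at chr19:34241090-34255590, Actg2 at chr6:83512905-83536265, Actb at chr5:142903115-142906754 and Actg1 at chr11:120345690-120348542. RefSeq promoter windows (GRCm38.p6, 250 bases before to 50 after the start) were matched for 4 of the 6 genes. They were searched on both strands for the CArG box, CC followed by 6 A or T letters and GG, and for the same motif with 1 letter of that A/T core replaced by G or C. The exact box was present in the windows of Actc1, Acta1 and Actg1, and in 1.63% of 32851 windows of the same length. In the window of Acta2 only boxes with a changed core letter were found, a form present in 8.5% of windows. Changed boxes were also present in the windows of Actc1, at -175, -138 and -87, and of Acta1, at -205 and -154, and are not shown. The stretches around the exact boxes, and around the changed boxes of Acta2, which has no exact one, are shown so that the motif can be compared between isoforms. Capitals mark the box, and positions are counted from the RefSeq start. The boxes shown for Actc1 and Acta2 lie inside the gene spans given above, and those for Acta1 and Actg1 lie outside. Distances from the RefSeq start are therefore not compared between isoforms.
Actc1, first base of the box at -47, chr2:114052903-114052932: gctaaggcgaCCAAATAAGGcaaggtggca
Acta1, first base of the box at -73, chr8:123894829-123894858: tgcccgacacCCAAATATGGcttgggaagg
Actg1, first base of the box at -90, chr11:120348566-120348595: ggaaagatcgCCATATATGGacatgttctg
Acta2, changed box at -84, chr19:34255438-34255467: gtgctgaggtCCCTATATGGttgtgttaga
Acta2, changed box at -34, chr19:34255388-34255417: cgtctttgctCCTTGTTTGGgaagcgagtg
A match is a description of letters, and binding was not measured.

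A library held 16441997 to 21904589 gene counts, of which 30.3% to 34.0% fell on mitochondrially encoded genes. CPM, the count scaled to a fixed library size, was computed with TMM-normalized library sizes, so that 3 counts correspond to between 0.126 and 0.195 CPM, a floor that covers counting error only. Comparisons were contrasts in a single edgeR quasi-likelihood model of all 16 mice with Benjamini-Hochberg adjustment over 16857 genes, and a gene was called at an adjusted p under 0.05. AAV9-GFP sham replicate 4 and AAV9-Cardinal TAC replicate 1 stood apart from their groups, and results that rest on them are given with and without them. The labels do not say whether mice shared litters or days of surgery. In bulk tissue, more cells of a type and more RNA per cell cannot be told apart. Cardinal lay between 3.42 and 7.24 CPM in AAV9-GFP hearts. With AAV9-Cardinal it reached 93.8 CPM in TAC replicate 1, the heart with the highest Acta1 of its group, and between 18.3 and 40.0 CPM in the other 7 hearts.

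In AAV9-GFP hearts, Acta1 rose 18.6-fold with TAC, the cytoplasmic isoforms Actb and Actg1 rose 1.28-fold and 1.29-fold, and no change of Actc1 or Acta2 passed the threshold. Of the 6 isoforms, 5 passed the expression filter and 3 were called, all higher, whereas 17.4% of all tested genes were called in this comparison and 8.49% were called higher. Acta1 was at 101, 153, 102 and 144 CPM in AAV9-GFP sham replicates 1 to 4. It was at 2278, 2782, 2047 and 2180.5 CPM in AAV9-GFP TAC replicates 1, 3, 4 and 7. Every TAC heart was far above every sham heart, and 20.3% of all tested genes did not overlap between these groups. The log2 fold change was 4.22 (standard error 0.26, 95% interval 3.67 to 4.77, edgeR adjusted p = 8.7e-07), the sixth largest change in size among the 14290 genes whose mean reached 1 CPM. An exact two-sided permutation test of CPM gave p = 0.029, which no pair of groups of this size can go below.

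In AAV9-Cardinal hearts Acta1 also rose with TAC, to a lower level. It was at 144, 92.6, 112 and 123 CPM in sham replicates 1 to 4, and at 1358, 686, 571 and 814 CPM in TAC replicates 1, 4, 5 and 6. The groups did not overlap, as for 13.7% of all tested genes, and replicate 1 was the highest TAC heart by a wide margin. The log2 fold change was 2.86 (standard error 0.24, edgeR adjusted p = 9.0e-05), a 7.28-fold rise. Acta1 was the only isoform called in this comparison, in which 6.48% of all tested genes were called and 3.1% were called higher. Actc1 and Actg1 lay just above the threshold and passed it under some other settings but not under all. Without AAV9-Cardinal TAC replicate 1 the mean of the group was 690 ± 122 CPM (SD, n = 3) instead of 857 ± 348 CPM (SD, n = 4), and the log2 fold change was 2.55.

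**Figure D1:**
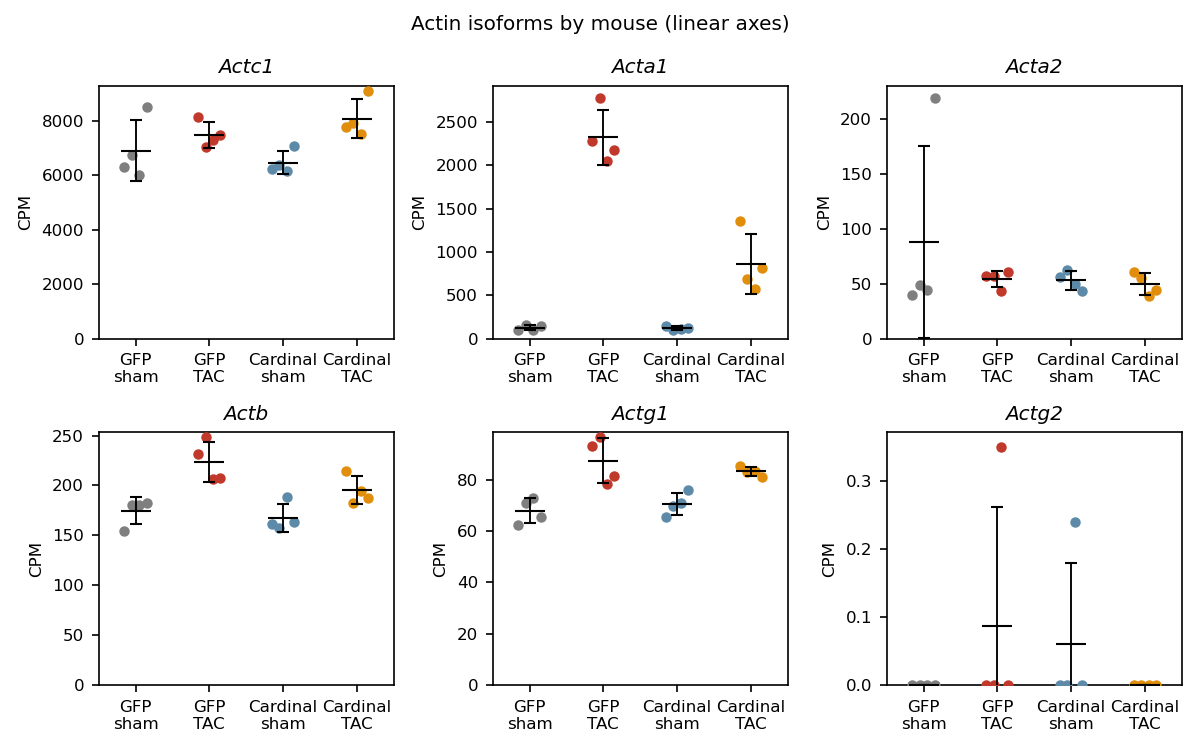
CPM (linear axes) of each actin isoform in each mouse, with a point per mouse and the mean ± SD of each group of 4 mice as black bars. Acta1 separates TAC from sham hearts with both viruses, and AAV9-GFP sham replicate 4 stands at 219 CPM for Acta2, above all other mice.

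After TAC, Acta1 was lower with AAV9-Cardinal than with AAV9-GFP, at 857 ± 348 against 2322 ± 321 CPM (SD, n = 4 each). All 4 AAV9-Cardinal TAC hearts were below all 4 AAV9-GFP TAC hearts, and 6.77% of all tested genes did not overlap between these groups. The log2 fold change was -1.44 (standard error 0.23, 95% interval -1.93 to -0.95, edgeR adjusted p = 0.039), and an exact two-sided permutation test gave p = 0.029. Acta1 was the only isoform called, against 0.101% of all tested genes called and 0.0771% called lower. These 17 genes became 535 without AAV9-Cardinal TAC replicate 1, and numbered 0 without AAV9-Cardinal TAC replicate 4, 5 or 6. The adjusted p rose above 0.05 when AAV9-Cardinal sham replicate 1, 2, 3 or 4, AAV9-Cardinal TAC replicate 4, 5 or 6, AAV9-GFP sham replicate 2 or 3, or AAV9-GFP TAC replicate 3 or 7 was left out, and ranged from 0.00028 to 0.18 over the 16 mice left out in turn, with the log2 fold change between -1.75 and -1.28. In sham hearts Acta1 did not differ detectably between the viruses, at 118 ± 21.5 CPM with AAV9-Cardinal and 125 ± 27.6 CPM with AAV9-GFP (SD, n = 4 each). The log2 fold change was -0.083 with a 95% interval from -0.57 to 0.41. In sham hearts edgeR called none of the isoforms, and none had an unadjusted p under 0.05, and DESeq2 also called none. Of all tested genes, 0.0119% were called and 2.59% had an unadjusted p under 0.05.

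The test of the difference itself, the TAC response with AAV9-Cardinal minus that with AAV9-GFP, gave a log2 value of -1.35 for Acta1 (standard error 0.32, 95% interval -2.05 to -0.66), with an unadjusted p of 0.00080 and an edgeR adjusted p of 0.30. It did not pass the threshold over all genes, where 0.0119% of tested genes did. Among the isoforms it had the only unadjusted p under 0.05, a level that 10.2% of all tested genes reached. DESeq2 gave an adjusted p of 0.029, and edgeR gave 0.0092 with a value of -1.67 when AAV9-Cardinal TAC replicate 1 was left out. That heart had the highest Acta1 of its group, and its omission was the only 1 of 16 to pass the threshold. With other single mice left out, the edgeR adjusted p reached 0.55. Of 7 other settings, 2 passed, DESeq2 among them, and the adjusted p reached 0.53 in the rest.

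**Figure D2:**
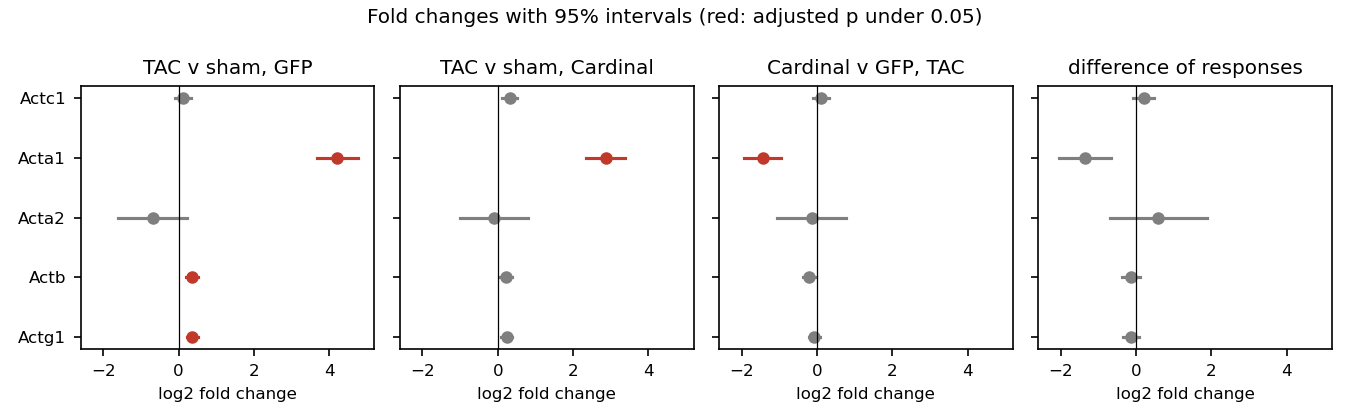
Log2 fold change (points) and 95% interval (lines) of 5 isoforms in 3 comparisons and in the difference of the TAC responses, with red for an adjusted p under 0.05 in edgeR. Acta1 is far to the right for TAC against sham, at 4.22 and 2.86, and to the left for AAV9-Cardinal against AAV9-GFP after TAC, at -1.44.

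Actc1, the main sarcomeric actin, was by far the most abundant isoform in every group. In AAV9-GFP sham replicates 1 to 4 it was at 6317, 6760, 6023 and 8505 CPM, and in AAV9-GFP TAC replicates 1, 3, 4 and 7 at 8154, 7045, 7279 and 7475 CPM. Sham replicate 4 was above every TAC heart, whereas the other 3 sham hearts were below all of them, and the log2 fold change was 0.12 (standard error 0.094, edgeR adjusted p = 0.45). Without that mouse, the sham group was at 6367 ± 371 CPM (SD, n = 3), and the log2 fold change was 0.23 with an adjusted p of 0.044 in edgeR. In AAV9-Cardinal hearts, Actc1 was at 6216, 6381, 6159 and 7068 CPM in sham replicates 1 to 4 and at 7754, 7932, 7511 and 9113 CPM in TAC replicates 1, 4, 5 and 6. These groups did not overlap, which 13.7% of all tested genes share, and the log2 fold change was 0.32 (standard error 0.094, edgeR adjusted p = 0.053). The adjusted p fell under 0.05 when AAV9-GFP sham replicate 3 or 4 or AAV9-GFP TAC replicate 1 was left out, at 0.048, 0.014 and 0.049. These mice are outside the groups compared, and they were 3 of 16 left out in turn. With other mice left out the edgeR adjusted p stayed above 0.05 and reached 0.15. It was also under 0.05 with DESeq2, with library size alone, with a filter of at least 1 CPM in at least 4 mice and with only the 8 mice compared, at 0.014 to 0.047. Among the remaining settings it reached 0.41.

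The cytoplasmic isoforms Actb and Actg1 were called in AAV9-GFP hearts, with smaller changes than Acta1. Actb was at 154, 180.4, 180.3 and 183 CPM in AAV9-GFP sham replicates 1 to 4 and at 232, 248, 206 and 207 CPM in AAV9-GFP TAC replicates 1, 3, 4 and 7. The groups did not overlap, as for 20.3% of all tested genes, and the log2 fold change was 0.36 (standard error 0.079, edgeR adjusted p = 0.0056). In AAV9-Cardinal hearts the groups overlapped, at 158 to 188 CPM in sham and 183 to 215 CPM in TAC. The log2 fold change was 0.22 with an edgeR adjusted p of 0.11.

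Actg1 was at 62.3, 70.9, 73.1 and 65.6 CPM in AAV9-GFP sham replicates 1 to 4 and at 93.1, 96.8, 78.6 and 81.6 CPM in AAV9-GFP TAC replicates 1, 3, 4 and 7. All TAC hearts were above all sham hearts, and 20.3% of all tested genes did not overlap between these groups. The log2 fold change was 0.36 (standard error 0.070, edgeR adjusted p = 0.0023). In AAV9-Cardinal hearts it was at 70.6 ± 4.31 CPM in sham and 83.3 ± 1.80 CPM in TAC (SD, n = 4 each), again with no overlap, which 13.7% of all tested genes share. The log2 fold change was 0.24 (edgeR adjusted p = 0.054). The adjusted p was 0.042 without AAV9-GFP TAC replicate 3 and 0.046 without AAV9-GFP TAC replicate 4, and between 0.019 and 0.047 under the same 4 other settings as for Actc1. Only these 2 of 16 mice left out in turn brought it under 0.05. It reached 0.15 with other mice left out and 0.19 among the remaining settings. The level of Actg1 is uncertain, because 56.7% of the 50-base stretches of its longest coding transcript occur in another annotated gene, against 14.2% for Actb, 2.22% for Acta1, 0.35% for Acta2 and 0% for Actc1 and Actg2. The counts of 14 actin pseudogene rows summed to 1364 ± 53.9 in AAV9-GFP sham hearts, near the 1408 ± 90.3 of Actg1 (SD, n = 4 each), and to 2877 ± 309 against 2040.0 ± 242 in AAV9-GFP TAC hearts. Some of these rows, among them Gm17228 and Gm4750, share more stretches with Acta1 or Actb than with Actg1. The sum is therefore not a measure of Actg1 alone. How reads with several matches were counted is not given in the sources used here.

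Acta2, the smooth muscle alpha-actin, was set apart by a single heart. It was at 39.7, 49.0, 44.5 and 219 CPM in AAV9-GFP sham replicates 1 to 4, and at 57.0, 57.0, 43.7 and 60.4 CPM in AAV9-GFP TAC replicates 1, 3, 4 and 7. The log2 fold change for TAC was -0.69 (standard error 0.42, edgeR adjusted p = 0.31) with all mice and 0.30 (adjusted p = 0.26) without sham replicate 4, so the direction turned with that mouse. In AAV9-Cardinal hearts, Acta2 was at 52.9 ± 8.43 CPM in sham and 49.4 ± 10.1 CPM in TAC (SD, n = 4 each), with overlapping groups.

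In AAV9-GFP sham replicate 4, Acta2 was 4.93-fold the mean of the other 3 sham hearts, which ranked eighth among 14290 genes by this ratio. Of the 9 smooth muscle markers, 3 were above all of the other 3 hearts, 1 was below all of them and 5 lay within their range. Those above were Synpo2 at 167 CPM against 118 to 124 CPM, Smtn at 147 CPM against 128 to 137 CPM and Myl9 at 13.0 CPM against 9.78 to 12.5 CPM. Myh11, the smooth muscle myosin heavy chain, was the marker below, at 18.4 CPM against 20.3 to 21.7 CPM, and Tagln, an actin-binding protein of smooth muscle, was within the range, at 11.1 CPM against 10.3 to 12.4 CPM. Abra, a striated muscle activator of SRF signaling, was at 97.6 CPM against 25.8 to 39.7 CPM. The immediate early gene Fos was at 8.06 CPM against 1.28 to 1.81 CPM, and the heat shock gene Hspa1a at 149 CPM against 4.25 to 34.1 CPM. Abra was higher in another heart, at up to 186 CPM among the other 15 mice of all groups. Fos and Hspa1a were highest in this heart, with at most 7.75 and 100 CPM in the other 15 mice. Acta2 was at most 62.7 CPM in those mice. Myl9, Myh11, Tagln, Abra, Fos and Hspa1a were picked after their values were seen, and the part of any of these genes in the Acta2 value was not tested. The highest values of Acta2 and Actc1 among sham hearts came from the same mouse, while its Actg1 and Actb lay at 65.6 and 183 CPM, close to those of the other 3.

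**Figure D3:**
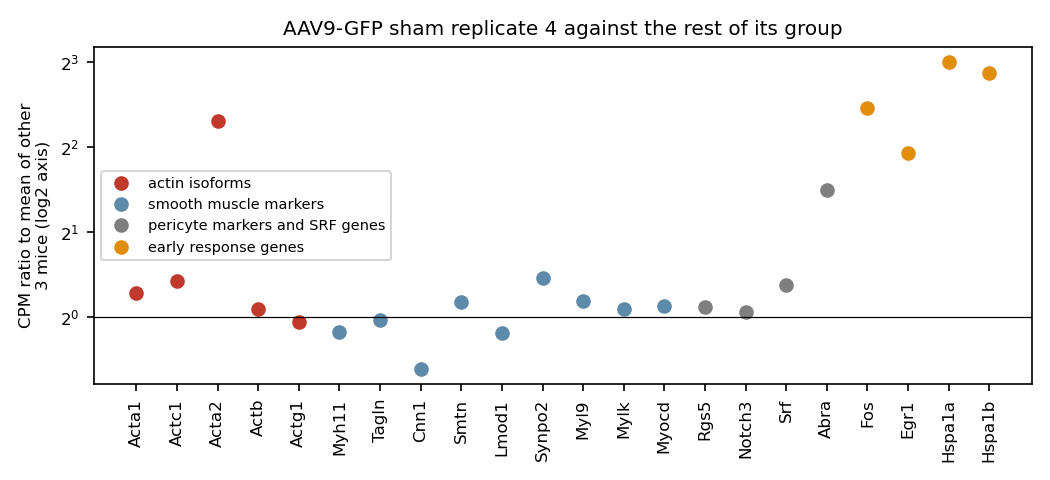
Ratio of the CPM in AAV9-GFP sham replicate 4 to the mean of the other 3 AAV9-GFP sham mice (log2 axis), with a point per gene. Acta2 is at 4.93, Fos at 5.52 and Hspa1a at 7.98, and the 9 smooth muscle markers lie between Cnn1 at 0.65 and Synpo2 at 1.37.

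Actg2, the visceral smooth muscle isoform, had 0 counts in 14 of the 16 mice. It had 5 counts in AAV9-Cardinal sham replicate 3 and 8 counts in AAV9-GFP TAC replicate 4. It did not pass the expression filter, and no difference was detectable at this depth.

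The composition of the actin counts changed with TAC. Acta1 made up 1.51, 2.12, 1.58 and 1.58% of the counts of the 6 genes in AAV9-GFP sham replicates 1 to 4, and 21.1, 27.2, 21.2 and 21.8% in AAV9-GFP TAC replicates 1, 3, 4 and 7. In AAV9-Cardinal hearts it made up 2.17, 1.37, 1.70 and 1.64% in sham replicates 1 to 4, and 14.3, 7.67, 6.80 and 7.95% in TAC replicates 1, 4, 5 and 6. The ranges of the AAV9-Cardinal TAC and AAV9-GFP TAC groups did not overlap, and both lay above every sham heart. Actc1 made up the larger part. It took 93.9 ± 0.57% in sham and 73.6 ± 3.16% in TAC with AAV9-GFP, and 94.0 ± 0.51% in sham and 87.3 ± 3.61% in TAC with AAV9-Cardinal (SD, n = 4 each). Without AAV9-Cardinal TAC replicate 1, the Acta1 share of that group was 7.47 ± 0.60% (SD, n = 3) instead of 9.19 ± 3.47% (SD, n = 4). Shares add up to a fixed total, so a rise in one isoform lowers the others, and no test was made on them.

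**Figure D4:**
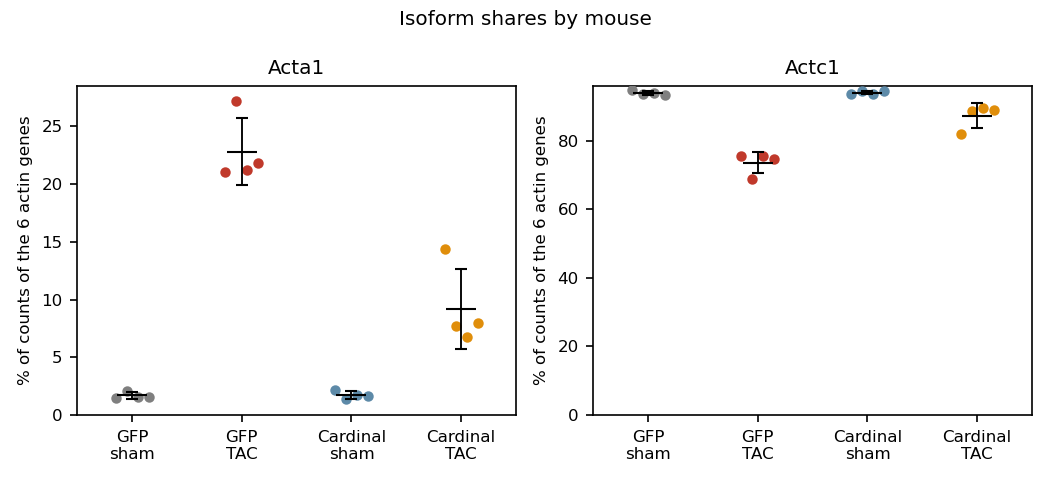
Percent of the counts of the 6 actin genes that fell on Acta1 (left) and Actc1 (right) in each mouse, with a point per mouse and the mean ± SD of each group as black bars. The AAV9-GFP TAC hearts lie between 21.1 and 27.2% for Acta1, and the AAV9-Cardinal TAC hearts between 6.80 and 14.3%.

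The 6 genes together took 0.70 ± 0.11% of all counts in AAV9-GFP sham hearts and 1.09 ± 0.061% in AAV9-GFP TAC hearts, and 0.67 ± 0.028% and 0.93 ± 0.090% in AAV9-Cardinal sham and TAC hearts (SD, n = 4 each). AAV9-GFP sham replicate 4 was at 0.87%, and replicates 1, 2 and 3 of that group were at 0.65, 0.69 and 0.60%. Levels of different isoforms were compared per length, as CPM per kilobase of the longest coding transcript. In AAV9-GFP sham hearts Actc1 was at 4685 ± 754, Actb at 90.8 ± 7.05, Acta1 at 86.3 ± 19.1, Acta2 at 43.3 ± 42.9 and Actg1 at 34.8 ± 2.53 CPM per kilobase (SD, n = 4 each). Actb and Acta1 overlapped there. Acta2 overlapped Actg1 through sham replicate 4 alone: without it Acta2 was at 21.8 ± 2.30 CPM per kilobase (SD, n = 3), with its highest heart at 24.1, below every value of Actg1, whose lowest was 31.9. In AAV9-GFP TAC hearts the order was Actc1 at 5084 ± 324, Acta1 at 1606 ± 222, Actb at 116 ± 10.6, Actg1 at 44.8 ± 4.51 and Acta2 at 26.8 ± 3.63 CPM per kilobase (SD, n = 4 each), with no overlap between neighbors. In AAV9-Cardinal TAC hearts the order was the same, with Acta1 at 593 ± 241 CPM per kilobase (SD, n = 4), and at 477 ± 84.3 without replicate 1 (SD, n = 3). The place of Actg1 in each group is uncertain, because 56.7% of its stretches occur in other genes. Summed with the 14 pseudogene rows it was at 211 ± 19.9 CPM in AAV9-GFP TAC hearts, against 224 ± 20.3 CPM for Actb (SD, n = 4 each). Per length, Acta1 reached 1.84 ± 0.31% of Actc1 in AAV9-GFP sham hearts, 31.8 ± 5.67% in AAV9-GFP TAC hearts, 1.87 ± 0.37% in AAV9-Cardinal sham hearts and 10.9 ± 4.68% in AAV9-Cardinal TAC hearts (SD, n = 4 each). The last value rests in part on AAV9-Cardinal TAC replicate 1, at 17.8%, with replicates 4, 5 and 6 at 8.81, 7.74 and 9.10%.

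Genes that act on actin were counted from fixed lists, for TAC against sham in AAV9-GFP hearts, where 8.49% of all tested genes rose and 17.4% were called. Of 16 genes for monomer binding and filament turnover, 9 rose and 1 fell, with a median log2 fold change of 0.26 against 0.0050 over all tested genes. Among them, Twf2, an actin monomer-binding twinfilin, rose with a log2 fold change of 0.50 (edgeR adjusted p = 0.00076), and Tmsb10, a thymosin, with 0.49 (adjusted p = 0.041). Of 27 genes for nucleation, capping and filament length, 8 rose and 3 fell, with a median of 0.12. Arpc1b, a subunit of the Arp2/3 nucleator, rose by 0.52, and Tmod4, a tropomodulin, fell by 0.44 on the log2 scale. Of 17 genes for actin folding and processing, none rose and 2 fell, the prefoldin subunits Pfdn6 and Pfdn5, with a median of -0.0072. Of 13 genes of SRF and its cofactors, 3 rose and 2 fell, with a median of 0.20. Mical2, an actin-oxidizing enzyme, rose by 0.53, and Hopx, a homeodomain protein that antagonizes SRF, fell by 0.80 on the log2 scale.

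In AAV9-Cardinal hearts, where 6.48% of all tested genes were called, 2 monomer-binding genes rose with TAC and none fell, 2 nucleation genes rose and 1 fell, none of the folding genes was called, and 3 SRF genes rose. Between the viruses after TAC, and in the difference of the responses, none of these genes was called, as against 0.101% and 0.0119% of all tested genes.

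Markers of other cell types were counted for TAC in AAV9-GFP hearts, again beside 17.4% called and 8.49% called higher over all tested genes. Of 9 activated fibroblast markers 8 were tested and 7 rose, and their summed level went from 222 to 247 CPM in sham hearts to between 618 and 841 CPM in TAC hearts. With AAV9-Cardinal, 2 rose with TAC, beside 6.48% called and 3.1% called higher over all tested genes in that comparison. The summed level of the fibroblast markers was 658 CPM in TAC replicate 1 and between 276 and 320.2 CPM in the other 3 TAC hearts, which lay below all AAV9-GFP TAC hearts. Postn, a matrix protein of activated fibroblasts, was at 115, 38.2, 51.2 and 41.5 CPM in AAV9-Cardinal TAC replicates 1, 4, 5 and 6, so that the heart with the highest Acta1 was also the highest in Postn. The part of fibroblasts in the cytoplasmic actin values was not tested. Of 9 smooth muscle markers, 1 rose and 2 fell, and of 6 pericyte markers, 3 rose and 1 fell. Of 6 endothelial markers 1 rose, and none of 6 leukocyte or 5 red blood cell markers was called. Of 11 cardiomyocyte markers, 2 rose and 6 fell, among them Tnni3, cardiac troponin I, by 0.53 on the log2 scale. Of 17 skeletal muscle markers, 10 were at 0 in every AAV9-GFP TAC heart. Of the 5 tested, 1 rose and 1 fell, Mybpc2, a myosin-binding protein, from 8.98 to 28.4 CPM (edgeR adjusted p = 9.4e-05) and Cacna1s, a calcium channel subunit, from 12.4 to 7.01 CPM (edgeR adjusted p = 0.00039). The summed level of the list went from between 19.6 and 27.2 CPM in sham hearts to between 32.1 and 40.8 CPM in TAC hearts, without overlap. This rise came with that of Mybpc2, whereas the median log2 fold change of the 5 tested markers was -0.82. The part of the listed genes in the Acta1 values was not tested.

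Genes whose profile over the 16 mice was most like that of an isoform were ranked by the root mean square difference of mean-centered log2 CPM among 14290 genes. The 5 nearest to Acta1 were Cilp, Gm17228, Nppa, Ltbp2 and Gm47692, with differences from 0.53 to 0.72 on the log2 scale. Gm17228 and Gm47692 are processed pseudogenes that hold 14 and 31 of the 50-base stretches of Acta1. Srl, Ppme1, Smyd1, Actn2 and Gm8959 were nearest to Actc1, at 0.084 to 0.10. Prkar1a, Prelid3b, Msn, Vasp and Hspb8 were nearest to Actb, at 0.076 to 0.084. Gm12715, Gm8399, Cfl2, Prkar1a and Msn were nearest to Actg1, at 0.037 to 0.084, and the pseudogenes Gm12715 and Gm8399 hold 973 and 677 of its stretches. The 5 nearest to Acta2, Rtn4r, Dedd2, Slc12a5, Lonrf1 and Rarb, were no closer than 0.41. The isoforms themselves varied to unlike degrees. Their own root mean square over the mice was 1.86 for Acta1, 0.56 for Acta2, 0.19 for Actb, 0.18 for Actg1 and 0.17 for Actc1. A small difference can therefore come from a small spread, and differences are not compared between isoforms.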

How the data were processed

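Poly(A) RNA of heart apex gave single-end reads of 50 bases. The values the authors deposited are raw counts for Ensembl genes in each of 16 mice, with no normalization. The submitters' processing notes name HISAT2 2.1.0, edgeR 3.26.1, FastQC and GRCm38. The counting program, the annotation, the use of strand and the handling of reads with several matches are not given in the sources used here. GENCODE M21 named 55480 of 55573 genes, and 0 columns were unused. The main analysis used edgeR 4.0.16 under R 4.3.3 (TMM, expression filter for the 4 groups, quasi-likelihood test, all 16 mice). DESeq2 1.42.0 and the other settings in the closing section were alternatives. Log2 CPM used a prior count of 2. Single genes were also compared by exact two-sided permutation of CPM (70 labelings, 24 comparisons, no adjustment). Mice of a group differed by more than sampling noise (chi-square per degree of freedom 5.32 to 16.0, 24 pairs). Genes named were the isoforms, the 5 nearest to each, and from each list the 2 highest and the 2 called genes with the largest change in AAV9-GFP hearts, of which examples are given. Myl9, Myh11, Tagln, Cnn1, Abra, Fos and Hspa1a were described in 1 heart after their values were seen. Srf, Mrtfa, Mrtfb and Myocd were also named after their values were seen. The members and lists were chosen with earlier results of these data known. The fit was tested on simulated data. Python 3.11.15, pandas 2.3.3, scipy 1.17.1 and matplotlib 3.10.9 were used.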

Additional observations from a re-analysis of the deposited data

Results flagged for a closer look

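In groups of 4, the highest or lowest mouse was compared with the others by Dixon's ratio at its 95% critical value. Of 52 groups, 15 values exceeded it. Chance flags about 1 in 20 groups when they are independent, but several values come from the same mouse, and shares and ratios reuse the same counts. For Actg2 the ratio was 1 wherever a single mouse of a group had counts, because the others were at 0. The number of values is therefore not set against chance. Acta2 was at 219 CPM, 2.40% of the actin counts, in AAV9-GFP sham replicate 4, against 39.7 to 49.0 CPM in the others. Actb was at 154 CPM in AAV9-GFP sham replicate 1, below the others at 180.3 to 183 CPM. Acta1 made up 2.12% of actin counts in AAV9-GFP sham replicate 2, 27.2% in AAV9-GFP TAC replicate 3 and 14.3% in AAV9-Cardinal TAC replicate 1. Actc1 was correspondingly at 68.9% and 81.9% in the last 2 mice, and Acta1 per length was at 2.31, 40.2 and 17.8% of Actc1 in these 3 mice. Actg2 was at 0.35 CPM (0.0036% of actin counts) in AAV9-GFP TAC replicate 4 and at 0.24 CPM (0.0036%) in AAV9-Cardinal sham replicate 3, with the other mice at 0. No cause was tested.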

How the results depend on the processing

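The number of isoforms called for TAC in AAV9-Cardinal hearts was 3 with DESeq2, library size alone, a filter of at least 1 CPM in at least 4 mice, or only the 8 mice compared (Acta1, Actc1 and Actg1 in each), and 2 (Acta1 and Actc1) with AAV9-GFP sham replicate 4 and AAV9-Cardinal TAC replicate 1 left out together, a choice made after the data were seen. For AAV9-Cardinal against AAV9-GFP in TAC it was 0 with no filter, with only the 8 mice, or with the replicate block. For the difference in TAC response it was 1 with DESeq2 and with those 2 mice left out. When single mice were omitted it was 3 to 4 for TAC in AAV9-GFP, 1 to 2 for TAC in AAV9-Cardinal, 0 to 1 between viruses in TAC, 0 between viruses in sham and 0 to 1 for the difference. The cause was not tested.

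Direction reversed without AAV9-GFP sham replicate 4, and with the 2 mice left out, for Acta2 with TAC in AAV9-GFP (0.30 and 0.30), for Acta2 between viruses in sham (0.25 and 0.25), for Actc1 there (0.020 and 0.020) and for the Acta2 difference (-0.40 and -0.51). Acta2 with TAC in AAV9-Cardinal became 0.0045 without AAV9-Cardinal TAC replicate 5, and Acta1 between viruses in sham became 0.017 without AAV9-Cardinal sham replicate 2 and 0.030 without AAV9-GFP sham replicate 2. Over all single mice omitted, the lowest and highest values were -0.93 and 0.30 for Acta2 with TAC in AAV9-GFP, -0.21 and 0.0045 for Acta2 with TAC in AAV9-Cardinal, and -0.40 and 0.83 for the Acta2 difference. Between viruses in sham they were -0.20 and 0.030 for Acta1, -0.16 and 0.020 for Actc1, and -0.98 and 0.25 for Acta2. These were 11 of 595 values. Of the rest, 550 kept direction and side of the threshold, 20 newly passed it and 14 no longer did.

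Library size alone raised the median of all genes by 0.16 for TAC in AAV9-GFP, and there Actb, Actg1 and Actc1 were at 0.52, 0.53 and 0.28. Genes called of all tested numbered 4901 there. For TAC in AAV9-Cardinal they numbered 615 with no filter and 31 with the replicate block, and 581, 395, 651, 384 and 511 without AAV9-Cardinal sham replicate 1, 2 or 4 or AAV9-Cardinal TAC replicate 5 or 6. Between viruses in TAC, 17 became 405 with DESeq2, 76 with library size alone, 3 with no filter or only the 8 mice, 35 with the 1 CPM filter, 30 without mitochondrial genes, 0 with the block and 563 with the 2 mice left out, and ranged from 0 to 535 with single mice omitted. In sham they were 4 with DESeq2 and 1 with the block, and for the difference 111, 1, and 30 with the 2 mice left out, with 79 without AAV9-Cardinal TAC replicate 1. Of 16 same-number correlations, 4 exceeded 0.1 (range -0.040 to 0.21), all of them between mice numbered 1. Correlations between different numbers were not computed, so whether replicate numbers pair the mice was not tested. With the block, Acta1 between viruses in TAC was -1.26 (adjusted p = 0.41 in edgeR). Counts per length gave Acta1 shares of 1.75% in sham and 23.3% in TAC with AAV9-GFP, and 1.77% and 9.43% with AAV9-Cardinal. With 4 mice a group, small changes may be missed.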
